A study of Caenorhabditis elegans with 24 samples.

Results

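In adult C. elegans of the wild-type strain (WT) kept at 37 °C, ribosome footprints were compared with mRNA, gene by gene. The comparison used every WT library at 37 °C, which are 6 of the 24 libraries of the series: 3 from ribosome profiling, which sequences the stretches of mRNA covered by ribosomes (footprints), and 3 from mRNA sequencing. Of 19669 genes listed, 12048 had counts high enough to be tested. The remaining WT libraries, 3 of footprints and 3 of mRNA from worms at 20 °C, were set beside them to test which ratios changed with heat. The other 12 libraries came from worms with a deletion of C38D4.9 (metl-5) and are not compared here. Worms of all these groups were labelled as adults and total RNA as the source. How long the worms were heated, how old they were and how RNA and footprints were prepared is not stated in the labels. No label says that replicates came from separate cultures, so the p-values rest on the spread among these libraries, which could be technical.

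The number of ribosomes on an mRNA depends on how often translation starts and on how fast ribosomes move along it, so footprints relative to mRNA are used as a measure of how heavily a message is translated. In many eukaryotes, heat shock lowers the making of most proteins, while the messages of heat shock proteins, the chaperones that bind unfolded proteins, are made and translated. Messages for ribosomal proteins and elongation factors are among the most abundant in growing animals and are known in many animals to be controlled as a group at the level of translation.

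The 3 heated footprint libraries held 4410194, 10947947 and 6474264 gene counts, and the 3 heated mRNA libraries 15529549, 16669407 and 16150052. Levels are given as CPM, the counts of a gene in every 1000000 counts assigned to genes. Footprint replicate 2 stood apart from the other heated footprint libraries: the heat-inducible gene hsp-70 was at 6909 CPM there, against 17602 and 24087 CPM, and the footprints of ribosomal proteins, collagens and vitellogenins were highest in it. In replicate 2 the shares of ribosomal proteins, elongation factors and vitellogenins (12.7, 2.41 and 2.50%) lay near the means of WT footprints at 20 °C (13.6, 2.92 and 3.34%). Replicate 1 had 6.39, 0.801 and 0.681% and replicate 3 had 7.07, 1.04 and 0.703%. Yet hsp-70 in replicate 2 was far above the 19.7 to 33.7 CPM of those 20 °C libraries, and col collagens (2.92%) were below their mean (5.40%). Why replicate 2 differed was not tested, and results are given with and without it. Footprint replicate 3 held reads that go against its WT label. cTel55X.1, with 0 counts in all WT mRNA libraries and in heated WT footprint replicates 1 and 2, had 27 counts there (4.17 CPM), against 4.96 to 9.89 CPM in the heated footprint libraries of the mutant. ZK228.3 and ZK228.4, with 0 counts in all mutant mRNA libraries, were at 10.04 and 8.50 CPM in replicate 3, against 28.1 and 18.1 CPM in replicate 1 and 29.3 and 19.5 CPM in replicate 2. Heated mutant footprint replicates 2 and 3, not compared here, held ZK228.3 too, at 9.33 and 11.3 CPM. The identity of footprint replicate 3 is thus in doubt, and results are also given without it. In footprint replicate 1, 34.8% of all reads were unmapped, against 5.35% in replicate 2 and 6.78% in replicate 3. Markers of the adult tissues were present in both assays: yolk (vit-6), adult cuticle (col-19) and body muscle (myo-3) had counts in all 6 libraries.

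A gene is called higher or lower in footprints where its adjusted p was under 0.05 (edgeR's quasi-likelihood test, Benjamini-Hochberg over the 12048 genes). Footprints were called higher than mRNA for 2082 genes (17.3%) and lower for 2521 (20.9%). Of these, 1943 were at least 2-fold higher and 2424 at least 2-fold lower, and 600 and 1274 were at least 4-fold apart. The counts of each gene list below are to be read beside the shares over all genes, 17.3% higher and 20.9% lower. Without footprint replicate 2, 1938 of the 2082 and 2346 of the 2521 were still called in the same direction. Without footprint replicate 3, 1514 and 1973 were, and each of the 2082 and 2521 kept its direction. The log2 differences are scaled by edgeR's TMM method, which sets the bulk of genes level, and the median over all genes was −0.03. Scaled by library totals alone the median was 0.49, and 3464 genes were called higher and 1545 lower. A gene with the same CPM in footprints and mRNA thus has a negative log2 difference here. No spike-in is named, so that each difference is relative to the other genes of its libraries. List counts on library totals below are to be read beside the 3464 higher and 1545 lower of the 12048 genes.

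Footprints were less concentrated than mRNA in the top 100 genes but not in the top 10. The 100 genes with most counts held 28.8 ± 1.10% of the gene counts in footprint libraries and 42.7 ± 4.87% in mRNA libraries (SD, n = 3 each). The 2 sets of libraries did not overlap, and the exact two-sided permutation test gave p = 0.1, the smallest that 3 against 3 allows. The top 10 genes held 9.02 ± 0.709% of footprints and 7.24 ± 0.628% of mRNA (exact p = 0.1), and the top 20 held 12.9 ± 1.17% and 12.9 ± 1.41% (exact p = 1). By counts, which also reflect a gene's length, 41 genes were in the top 100 of both assays, and 29 without footprint replicate 2. Of the top 100 mRNAs, 62 were ribosomal proteins and 14 col collagens, and 85 were called lower in footprints. Of the top 100 by footprints, 28 were ribosomal proteins and 13 muscle filament genes, with 27 called higher, 27 lower and 46 in neither direction. Across 11998 genes, levels per length in footprint and mRNA libraries of the same number had Spearman correlations of 0.784, 0.838 and 0.81. Genes are not independent replicates, and the same annotation gave both lengths.

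**Figure D1:**
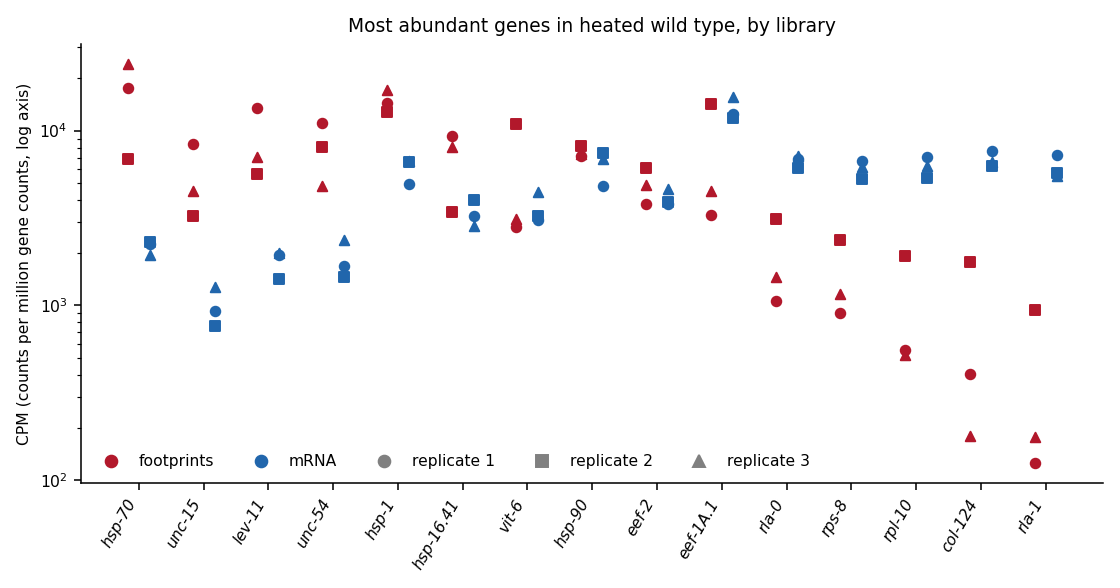
CPM (log axis) of the 15 genes that were among the 10 highest by footprints or the 8 highest by mRNA, with 3 footprint libraries (red, left) and 3 mRNA libraries (blue, right) per gene and a marker shape per replicate. Genes run by log2 difference, from hsp-70, whose 3 footprint libraries all lie above its mRNA libraries, to rla-1, whose footprint libraries all lie below 1000 CPM.

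By single gene, chaperones of the cytosol led the mean footprint levels, but not those of footprint replicate 2. In that library the elongation factor gene eef-1A.1 stood above hsp-1, and the yolk protein gene vit-6 above hsp-70. hsp-70, the heat-inducible HSP70 (WBGene00002026; WBcel235 chromosome I, 9320325 to 9322519, minus strand), had 17602, 6909 and 24087 CPM of footprints in the 3 libraries and 2250.0, 2302 and 1939.7 CPM of mRNA. By the mean over libraries it ranked 1 by footprint counts and 111 by mRNA counts, and per length 3 and 174. Every footprint library lay above every mRNA library. The log2 difference was 2.36 ± 0.52 (SE, adjusted p = 0.00397), and 2.73 without footprint replicate 2 (adjusted p = 1.05e-05) and 1.91 without footprint replicate 3 (0.0225). hsp-1, the HSP70 made at all temperatures, ranked second by footprint counts with 14299, 12691 and 17048 CPM of footprints and 4972, 6568 and 6685 CPM of mRNA. Its libraries did not overlap either, but the log2 difference of 0.74 ± 0.42 did not pass edgeR's test (adjusted p = 0.184; 0.0614 without footprint replicate 2). It passed on library totals (log2 1.27, adjusted p = 0.00744), in DESeq2 (0.0333) and in the edgeR fit of all 12 WT libraries (0.0377).

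Other chaperones held many footprints and were abundant as mRNA too, with no difference that passed edgeR's test on the TMM scale. hsp-90, the cytosolic HSP90, was at 7193, 8178 and 7310.5 CPM in footprints and 4843, 7491 and 6859 CPM in mRNA, with a log2 difference of −0.28 ± 0.40 (adjusted p = 0.612; 0.24 on library totals), and the libraries overlapped. The small heat shock protein hsp-16.41 (WBcel235 chromosome V, 1805178 to 1805875, plus strand) was at 9303, 3401 and 8088 CPM in footprints and 3256, 4014 and 2843 CPM in mRNA (log2 0.50 ± 0.45, adjusted p = 0.408; 1.04 and called higher on library totals, 0.0451). Per length it stood highest of all genes tested in footprints, at 14369.7 ± 6677 footprints per coding length in TPM (SD, n = 3), against 4168 ± 872 TPM of mRNA per exon length. Its neighbour hsp-16.2 had 5576, 2039 and 4023 CPM of footprints and 2578, 3495 and 2414 CPM of mRNA (log2 −0.08 ± 0.43, adjusted p = 0.904; 0.23 without footprint replicate 2 and 0.46 on library totals). For both, footprint replicate 2 was the lowest footprint library. hsp-110, a nucleotide exchange factor for HSP70, had a log2 difference of 0.34 ± 0.36 (adjusted p = 0.479).

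Of the list of 19 cytosolic HSP70 and HSP90 proteins and co-chaperones, 6 were called higher and 5 lower (median log2 0.57), with the same counts without footprint replicate 2, and 10 and 3 on library totals. The list held 4.97 ± 1.27% of the footprint counts and 2.14 ± 0.269% of the mRNA counts (SD, n = 3 each). The lowest members were F44E5.5 and F44E5.4, a pair of near-identical HSP70 genes on chromosome II. F44E5.5 had 9.75, 1.19 and 19.6 CPM of footprints and 1144, 504 and 807 CPM of mRNA (log2 −6.95 ± 0.88, adjusted p = 0.000135). F44E5.4 had 12.2, 1.46 and 17.6 CPM of footprints and 818, 353 and 575 CPM of mRNA (log2 −6.44 ± 0.81, adjusted p = 0.00013). Reads that map to several places were not counted, and a footprint is short, so the values of near-identical copies are uncertain.

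Of 15 small heat shock proteins tested among 16, 4 were called higher and 4 lower (median log2 0.50). The 4 higher ones became 1 without mRNA replicates 2 or 3 or footprint replicate 1 and 2 without footprint replicate 3. hsp-43, a small heat shock protein, led them with 459, 263 and 423 CPM of footprints and 68.2, 93.8 and 65.4 CPM of mRNA (log2 1.80 ± 0.33, adjusted p = 0.00126). The 4 lower ones were the duplicate copies that carry the symbols hsp-16.1 and hsp-16.48, in each case 2 gene IDs per symbol. One hsp-16.48 row (WBGene00002019) had 2 footprint counts and 974 mRNA counts over the 3 libraries of each assay, a ratio of 219.9 towards mRNA per gene count (95% counting interval 60.7 to 1818). The other (WBGene00002020) had 2 and 818, a ratio of 185 (51.0 to 1528). Their sequence is shared between the copies, so these values too are uncertain and cannot be read as few footprints on hsp-16 messages.

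Chaperones of mitochondria stood higher in footprints. Of 8 mitochondrial chaperones and proteases, 5 were called higher and 0 lower (median log2 1.18), and 6 and 1 without footprint replicate 2. hsp-60, the mitochondrial chaperonin, had 2831, 2112 and 3881 CPM of footprints and 408, 568 and 575 CPM of mRNA (log2 1.98 ± 0.40, adjusted p = 0.00226; 1.70, 0.0103 without footprint replicate 3). hsp-6, the mitochondrial HSP70, had 2106, 2180.2 and 2629 CPM of footprints and 482, 718 and 939 CPM of mRNA (log2 1.16 ± 0.39, adjusted p = 0.0315). The call of hsp-6 was lost without mRNA replicate 1 (log2 1.01), mRNA replicate 2 (1.05), footprint replicate 1 (1.26) or footprint replicate 3 (1.03). The cytosolic chaperonin CCT, which folds actin and tubulin, had 1 of 8 subunits called higher, cct-8, with 1005, 899.8 and 1053 CPM of footprints and 138, 272 and 278 CPM of mRNA (log2 1.59 ± 0.36, adjusted p = 0.00409), a smaller share than over all genes. The median log2 difference of the 8 subunits was 0.59 and the lowest was 0.02, beside a median of −0.03 over all genes. On library totals 5 subunits were called higher, and 3 in DESeq2 and per length.

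Of 20 chaperones and stress genes of the endoplasmic reticulum, 1 was called higher and 5 lower, shares close to or below those over all genes (median log2 −0.24). On library totals the median was 0.18, beside 0.49 over all genes, with 2 called higher and 0 lower. The sign of the list's median thus differed between the scales. On both scales it was below the median over all genes, which was −0.03 on the TMM scale. The 5 became 1 without footprint replicate 3, 2 without mRNA replicate 3 or footprint replicate 1, 3 without mRNA replicate 2 and 9 without footprint replicate 2, and the 1 became 2 without footprint replicate 2. crt-1, the calcium-binding chaperone calreticulin, was the lowest with 1086, 1050.2 and 701 CPM of footprints and 1656, 1751 and 1579 CPM of mRNA (log2 −1.37 ± 0.37, adjusted p = 0.0117), and missed the threshold without footprint replicate 3 (0.0578). hsp-4, the HSP70 of the endoplasmic reticulum, had 4093, 2864 and 2815 CPM of footprints and 928, 1718 and 909.7 CPM of mRNA (log2 0.96 ± 0.38, adjusted p = 0.0645; 0.022 without footprint replicate 2, 0.00765 in DESeq2 and 0.00603 on library totals). The stress sensor atf-6 was the 1 called higher (log2 1.85 ± 0.56, adjusted p = 0.0198), at 7.71, 7.12 and 6.18 CPM of footprints and 1.16, 2.58 and 0.433 CPM of mRNA, and missed the threshold without mRNA replicate 1 (0.0568), mRNA replicate 3 (0.0731) or footprint replicate 1 (0.0508).

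Among 16 stress transcription factors and genes of the integrated stress response, 5 were called higher and 2 lower, beside 17.3 and 20.9% of all genes. The 2 became 1 without mRNA replicates 1 or 2 or footprint replicate 1 and 4 without footprint replicate 2. cebp-1, a bZIP transcription factor, had 739.6, 388 and 648 CPM of footprints and 29.0, 45.2 and 42.97 CPM of mRNA (log2 3.39 ± 0.37, adjusted p = 5.49e-05). atf-4, whose relatives in mammals are held back by upstream reading frames, had 4.08, 2.65 and 4.17 CPM of footprints and 58.1, 67.2 and 51.6 CPM of mRNA (log2 −4.58 ± 0.37, adjusted p = 7.28e-06). The 2 transcription factors thus lay on opposite sides of their mRNA, with no overlap between the libraries of either. The gene atf-4 shares 14.9% of its exon bases with another gene on the same strand.

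Muscle filament genes also held many footprints. Of 39 tested, 15 were called higher and 2 lower (median log2 0.70), and 20 and 3 without footprint replicate 2, 14 and 2 without footprint replicate 3 and 24 and 2 on library totals. The 15 became 5 without footprint replicate 1 and 7 without mRNA replicate 2. The list held 8.57, 4.12 and 4.68% of the gene counts in the 3 footprint libraries. In the 3 mRNA libraries it held 2.55, 1.92 and 2.71%, so footprint replicate 1 was the highest and no libraries overlapped. Its mean share of footprints, 5.79 ± 2.42%, was below the 8.71 ± 3.45% of ribosomal proteins (SD, n = 3 each). Without footprint replicate 2 the means were 6.63 and 6.73%. In replicate 1 alone the muscle list was above the 6.39% of ribosomal proteins. lev-11, tropomyosin (WBcel235 chromosome I, 14621169 to 14631094, minus strand), had 13463, 5674 and 7091 CPM of footprints and 1934, 1415 and 1985 CPM of mRNA. Its log2 difference was 1.70 ± 0.47 (adjusted p = 0.013; 1.93, 0.000576 without footprint replicate 2; 1.30, 0.064 without footprint replicate 1). unc-54, the main myosin heavy chain of body wall muscle, had 10988, 8020.0 and 4844 CPM of footprints and 1679, 1453 and 2366 CPM of mRNA (log2 1.53 ± 0.46, adjusted p = 0.0193), and missed the threshold without footprint replicate 1 (0.0765), mRNA replicate 1 (0.0692) or mRNA replicate 2 (0.0693).

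unc-15, the paramyosin of thick filaments, had 8336, 3228 and 4527 CPM of footprints and 935, 764 and 1270.1 CPM of mRNA (log2 1.85 ± 0.47, adjusted p = 0.00847) and kept its call with each library left out in turn. unc-22, the giant kinase twitchin, was the highest member with 1668, 853 and 759 CPM of footprints and 72.5, 65.6 and 85.6 CPM of mRNA (log2 3.29 ± 0.42, adjusted p = 0.000139). Both were highest in footprint replicate 1. myo-3, the other myosin heavy chain of body wall muscle, had 1075, 818 and 383 CPM of footprints and 167, 139.7 and 179 CPM of mRNA (log2 1.64 ± 0.41, adjusted p = 0.00764). The actin gene act-3 was the lowest member, with 410.0, 173 and 226 CPM of footprints and 1384, 1017 and 1355 CPM of mRNA (log2 −2.81 ± 0.44, adjusted p = 0.000539). It has near-identical actin copies, so its value is uncertain. From the CPM levels of either assay in whole worms, fewer cells of a type and less RNA per cell cannot be told apart.

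**Figure D2:**
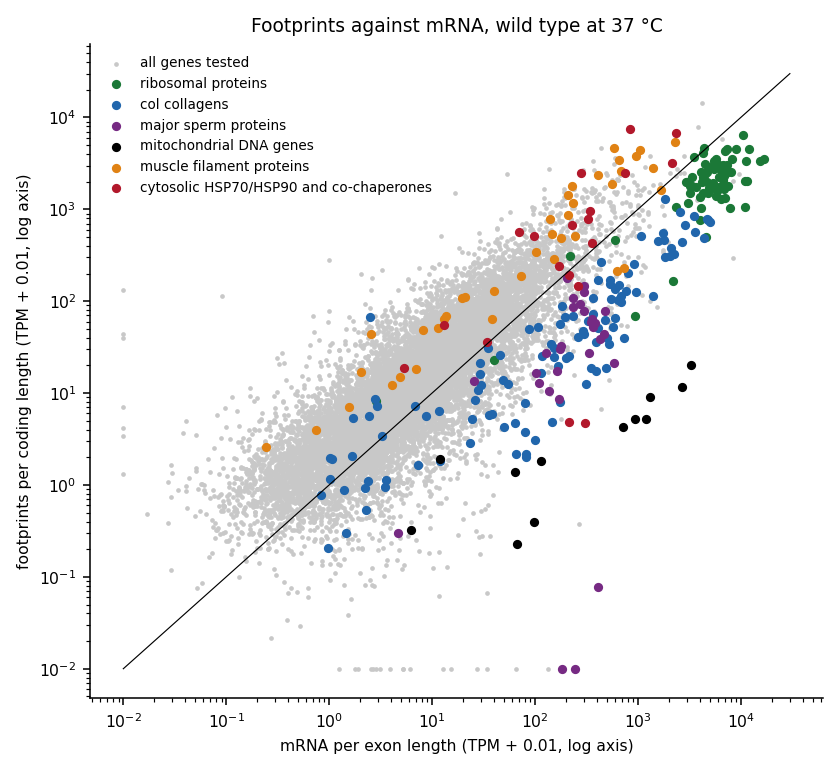
Mean footprints per coding length against mean mRNA per exon length (TPM + 0.01, log axes, 3 libraries each) for the genes tested, with 6 groups in colour and a line of equal values. Muscle filament genes and most cytosolic HSP70 and HSP90 genes lie above the line or near it, while ribosomal proteins, col collagens, major sperm proteins and mitochondrial DNA genes lie mostly below it.

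Ribosomal proteins, the parts of the ribosome itself, held a much smaller share of footprints than of mRNA. They held 8.71 ± 3.45% of the footprint counts and 28.6 ± 3.74% of the mRNA counts (SD, n = 3 each). By library the shares were 6.39, 12.7 and 7.07% of footprints and 32.0, 24.6 and 29.1% of mRNA, with footprint replicate 2 the highest footprint library and still below every mRNA library. Of 44 proteins of the large subunit, 38 were called lower and 0 higher (median log2 −2.37; −2.87 with 42 called lower without footprint replicate 2). Of 31 of the small subunit, all 31 were called lower (median log2 −2.31; −2.68 without footprint replicate 2). Without footprint replicate 3, 33 and 29 were called lower. On library totals 34 and 31 were called lower. The library totals and TMM scales thus gave the same direction for both lists.

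rla-1, an acidic protein of the ribosomal stalk (WBcel235 chromosome I, 2069086 to 2069575, minus strand), ranked 433 by footprint counts and 6 by mRNA counts, and 183 and 7 per length. It had 125, 942 and 176 CPM of footprints and 7247, 5708 and 5499.6 CPM of mRNA (log2 −4.46 ± 0.76, adjusted p = 0.000834; −5.91 without footprint replicate 2 and −4.09 without footprint replicate 3). rla-0, the core protein of that stalk, had 1064, 3102 and 1457 CPM of footprints and 6854, 6116 and 7148 CPM of mRNA (log2 −2.40 ± 0.51, adjusted p = 0.00293). rpl-10 of the large subunit had 557, 1907 and 523 CPM of footprints and 7031, 5381 and 6283 CPM of mRNA (log2 −3.22 ± 0.59, adjusted p = 0.00123). In all of these footprint replicate 2 was the highest of the footprint libraries. rps-8 of the small subunit had 909.7, 2375 and 1166 CPM of footprints and 6707, 5273 and 6163 CPM of mRNA (log2 −2.60 ± 0.50, adjusted p = 0.00172). The lowest called member of the large subunit was rpl-41.2 (log2 −5.06 ± 0.63, adjusted p = 0.000122) and that of the small subunit rps-12 (−3.84 ± 0.87, 0.00438), and rps-12 had 90.7, 1297 and 140.2 CPM of footprints and 5634, 4701 and 4494 CPM of mRNA. rpl-41.2 codes for a very short protein, and its log2 difference was −3.22 when coding length was set against exon length.

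The called member nearest to its mRNA was rpl-15 in the large subunit (log2 −1.39 ± 0.44, adjusted p = 0.0259) and rps-3 in the small subunit (−1.54 ± 0.44, 0.0159). Each missed the threshold without mRNA replicate 1, mRNA replicate 3, footprint replicate 1 or footprint replicate 3: rpl-15 was then at −1.23, −1.36, −1.16 and −1.27, and rps-3 at −1.37, −1.50, −1.33 and −1.42. The ribosomal proteins of mitochondria, 69 in all, lay on both sides of their mRNA, with 21 called higher and 12 lower (median log2 0.02), and 26 and 5 on library totals. The 21 became 9 without mRNA replicates 1 or 3, 10 without footprint replicate 3, 11 without mRNA replicate 2 and 13 without footprint replicate 1. mrps-31 was the highest with 159, 118 and 239.7 CPM of footprints and 7.66, 11.9 and 18.5 CPM of mRNA (log2 3.23 ± 0.42, adjusted p = 0.000151), and mrps-24 the lowest with 24.3, 32.0 and 16.8 CPM of footprints and 57.9, 68.6 and 62.7 CPM of mRNA (−1.91 ± 0.33, 0.000848).

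**Figure D3:**
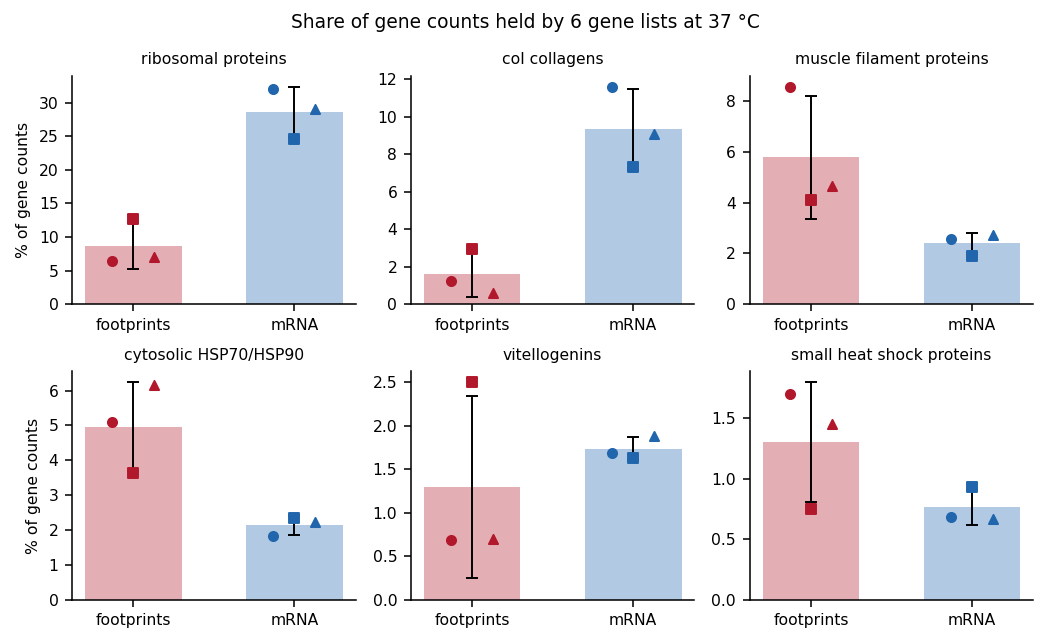
Percent of gene counts held by 6 gene lists in WT worms at 37 °C, footprints (red) left of mRNA (blue); bars are means, error bars SD of 3 libraries, and points single libraries with the marker shapes circle, square and triangle for replicates 1, 2 and 3. Ribosomal proteins and col collagens take a smaller share of footprints than of mRNA, muscle filament genes a larger one, and the square of replicate 2 is the highest footprint library for ribosomal proteins, collagens and vitellogenins.

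Of 6 elongation factor genes, 0 were called higher and 3 lower (median log2 −1.90; −2.84 with 4 called lower without footprint replicate 2). eef-1A.1, the factor that brings charged tRNAs to the ribosome (WBcel235 chromosome III, 6970026 to 6971712, minus strand), had 3271, 14253 and 4530.4 CPM of footprints and 12476, 11864 and 15469 CPM of mRNA, where it held the most counts of all genes. Replicate 2 was the highest by footprints and overlapped the mRNA libraries, and the log2 difference of −1.41 ± 0.58 did not pass the test (adjusted p = 0.0721), but passed in DESeq2 (0.0203), with no filter on low counts (0.0411) and in the fit of all 12 WT libraries (0.0285). Without that library it was −2.32 (edgeR adjusted p = 0.000183). eef-2, which moves the ribosome along, had 3817, 6093 and 4877 CPM of footprints and 3785, 3909.6 and 4617 CPM of mRNA (log2 −0.29 ± 0.41, adjusted p = 0.614; 0.26 on library totals). The subunits of the exchange factor were called lower: eef-1B.1 had 102, 777 and 97.0 CPM of footprints and 2157, 2140.0 and 1962 CPM of mRNA (log2 −3.23 ± 0.73, adjusted p = 0.00437), and eef-1B.2 was at −2.40 ± 0.55 (0.0047).

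Initiation factors and aminoacyl-tRNA synthetases were more often higher than lower. Of 33 initiation factors, 14 were called higher and 3 lower (median log2 0.75), and 20 and 3 without footprint replicate 2, 10 and 3 without footprint replicate 3 and 24 and 3 on library totals. eif-2Bepsilon, the catalytic subunit of the exchange factor for eIF2, had 124, 87.4 and 171 CPM of footprints and 7.86, 20.5 and 13.3 CPM of mRNA (log2 2.72 ± 0.37, adjusted p = 0.000219). iff-1, an eIF5A gene, was the lowest with 264, 1308 and 338 CPM of footprints and 2110.4, 2258 and 2205 CPM of mRNA (log2 −2.33 ± 0.58, adjusted p = 0.00714). Of 29 aminoacyl-tRNA synthetases, which charge tRNAs with amino acids, 15 were called higher and 1 lower (median log2 0.87), and 21 and 0 on library totals. The count of 15 was 5 without mRNA replicate 1, 8 without mRNA replicate 3 or footprint replicate 3 and 9 without mRNA replicate 2. wars-1, for tryptophan, had 278, 250.1 and 339 CPM of footprints and 27.8, 53.2 and 62.7 CPM of mRNA (log2 2.08 ± 0.35, adjusted p = 0.000809). The mitochondrial enzyme iars-2 was the 1 called lower (log2 −0.85 ± 0.31, adjusted p = 0.0457), and its call was kept in 1 of the 6 fits that left out a library, the one without footprint replicate 3.

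Cuticle collagens were the lowest of the large groups. Of 112 genes of the col family tested among 156, 96 were called lower and 1 higher (median log2 −3.23; −3.66, with 99 lower, without footprint replicate 2; −2.96, with 91 lower, without footprint replicate 3). They held 1.23, 2.92 and 0.616% of the gene counts in the footprint libraries and 11.6, 7.29 and 9.08% in the mRNA libraries. Among 20 collagens named for body shape, the 19 tested were called lower (median log2 −2.85). Of these bli-2 was the nearest to its mRNA, with 136, 64.0 and 59.2 CPM of footprints and 234, 89.1 and 127 CPM of mRNA (log2 −1.45 ± 0.47, adjusted p = 0.0275), and missed the threshold without mRNA replicate 1 (0.172) or footprint replicate 3 (0.0932) and on library totals (0.15). col-124, second by mRNA counts (WBcel235 chromosome IV, 10216451 to 10217617, plus strand), had 406, 1765 and 179.6 CPM of footprints and 7674, 6249 and 6596 CPM of mRNA (log2 −3.70 ± 0.74, adjusted p = 0.0022; −5.14 without footprint replicate 2 and −3.22 without footprint replicate 3). col-19, a marker of the adult cuticle, had 421, 1089.8 and 193 CPM of footprints and 4948, 3557 and 4267 CPM of mRNA (log2 −3.49 ± 0.62, adjusted p = 0.00105). Both had most footprints in replicate 2. The lowest member, col-7, had 3.85, 4.57 and 1.54 CPM of footprints and 264, 89.6 and 249.8 CPM of mRNA (log2 −6.53 ± 0.62, adjusted p = 2.11e-05), and bli-6, a collagen named for blisters, had 36.1, 98.4 and 33.7 CPM of footprints and 1111, 648 and 886 CPM of mRNA (−4.56 ± 0.55, 0.000102). The single collagen called higher was col-135, at 126, 165 and 163 CPM of footprints and 7.21, 9.42 and 3.28 CPM of mRNA (log2 3.999 ± 0.40, adjusted p = 3.13e-05). Some collagens share long stretches of sequence, which the counting leaves out where a read maps to several places.

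**Figure D4:**
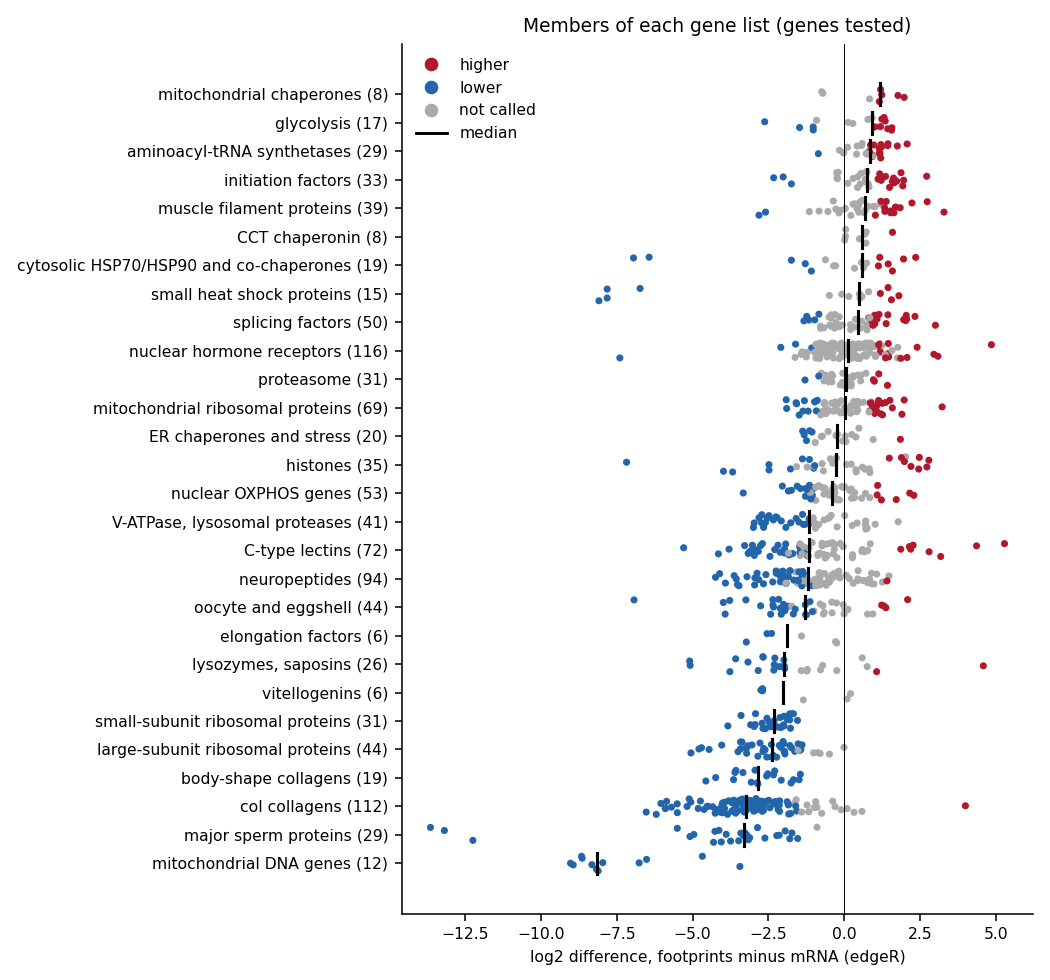
Log2 difference of footprints minus mRNA (edgeR, TMM scale) for each tested member of 28 gene lists, with the number tested in brackets; red points were called higher, blue lower and grey in neither direction, and black bars are medians. Mitochondrial chaperones are at the top with a median of 1.18 and mitochondrial DNA genes at the bottom with −8.15, and the colour of most points in the ribosomal protein, collagen and major sperm protein rows is that of the lower call.

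The yolk proteins depended on the library that stood apart. Of 6 vitellogenins, 3 were called lower and 0 higher (median log2 −2.02; −3.19 with 4 lower without footprint replicate 2). vit-6 had 2818, 10924 and 3109 CPM of footprints and 3067, 3254 and 4452 CPM of mRNA, so that replicates 1 and 3 lay near the mRNA and replicate 2 far above it. Its log2 difference was 0.09 ± 0.54 (adjusted p = 0.91), and −0.83 without footprint replicate 2 (0.0801). vit-3 had 251, 973 and 179.6 CPM of footprints and 2488, 2172 and 1508 CPM of mRNA (log2 −2.69 ± 0.61, adjusted p = 0.00431), and vit-4 158, 716 and 149 CPM of footprints and 1742, 1664 and 1286 CPM of mRNA (−2.75 ± 0.60, 0.00346). vit-3 and vit-4 are close copies of one another, and their split is uncertain.

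Messages of lysosomal and secreted proteins were more often lower than higher. Of 41 V-ATPase subunits and lysosomal proteases tested, 22 were called lower and 0 higher (median log2 −1.15), and 31 lower without footprint replicate 2. On library totals 15 were called lower and 5 higher. asp-3, an aspartyl protease of lysosomes, had 174, 477 and 132 CPM of footprints and 1443, 1443 and 1371 CPM of mRNA (log2 −2.99 ± 0.51, adjusted p = 0.000848). vha-17, a V-ATPase subunit, was the called member nearest to its mRNA (log2 −1.15 ± 0.42, adjusted p = 0.0443), and its call was kept in 1 of the 6 fits that left out a library, the one without footprint replicate 2. Of 26 lysozymes and saposin-like proteins, which act against microbes, 16 were called lower and 2 higher (1 higher without mRNA replicates 2 or 3 or footprint replicate 1). Of these, spp-17 had 26.3, 53.0 and 13.1 CPM of footprints and 819, 606 and 699.9 CPM of mRNA (log2 −5.10 ± 0.55, adjusted p = 5.35e-05). Of 72 C-type lectins tested among 239, 28 were called lower and 8 higher, and the 8 became 5 without mRNA replicate 2 or footprint replicate 1. On library totals 20 were lower and 8 higher. Of 94 neuropeptide genes tested among 137, 41 were called lower and 1 higher (median log2 −1.19; −0.48 per length, where 23 were lower; 24 lower and 7 higher on library totals). The 41 became 24 without mRNA replicate 1 and 27 without footprint replicate 3, and the 1 higher, nlp-14 (log2 1.41 ± 0.42, adjusted p = 0.0175), missed the threshold without mRNA replicate 1 (0.0515) or mRNA replicate 3 (0.0782).

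By number of genes called, the major sperm protein list and the oocyte and eggshell list were also more often lower than higher. Of 29 major sperm protein genes tested among 31, 28 were called lower and 0 higher (median log2 −3.32). msp-113 had 0 footprint counts against 5776 mRNA counts over the 3 libraries of each assay, at least 869-fold lower in footprints per gene count, with the 0 taken as a floor of 3 counts in the group. msp-79 had 0 against 4270, at least 643-fold lower, and msp-51 had 1 against 9643, a ratio of 4354 towards mRNA (95% counting interval 781 to 172006). The msp genes are a family of near-identical copies, so these values and the number of msp genes called are uncertain. msp-81, chosen after its values were seen, had 6.35, 15.3 and 6.02 CPM of footprints and 303, 265 and 299 CPM of mRNA (log2 −5.51 ± 0.48, adjusted p = 1.16e-05). msp-63 was the called member nearest to its mRNA (log2 −1.53 ± 0.53, adjusted p = 0.0372), and its call was kept in 1 of the 6 fits that left out a library, the one without footprint replicate 2. Of 44 oocyte and eggshell genes, 25 were called lower and 4 higher (median log2 −1.28), and 29 and 5 without footprint replicate 2. The 4 became 1 without mRNA replicate 1 and 2 without mRNA replicate 2. By share of counts the oocyte and eggshell list was not lower. It held 1.37 ± 0.118% of footprint counts and 1.04 ± 0.327% of mRNA counts (SD, n = 3 each), and the libraries overlapped. Major sperm proteins held 0.0624 ± 0.0369% and 0.371 ± 0.0451%. nos-2, a Nanos gene whose message is known to be kept silent in oocytes, had 0.227, 0.365 and 1.39 CPM of footprints and 31.9, 111 and 40.2 CPM of mRNA (log2 −6.93 ± 0.63, adjusted p = 1.78e-05), with 12.4% of its exon bases under him-14 on the opposite strand. car-1, an RNA-binding protein of germline granules, was the highest, with 3587, 2937 and 5179.9 CPM of footprints and 325, 809 and 814 CPM of mRNA (log2 2.09 ± 0.45, adjusted p = 0.00308).

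The 12 genes of mitochondrial DNA, which are translated inside mitochondria by ribosomes of their own, were each called lower (median log2 −8.15; −7.90 without footprint replicate 2). This set was drawn up after its values were seen, and 6 of its genes share no exon bases with another gene. They held 0.00622 ± 0.00251% of the footprint counts and 1.18 ± 0.259% of the mRNA counts. COX3, a subunit of cytochrome oxidase, had 10.2, 5.66 and 14.1 CPM of footprints and 2909.8, 1861 and 3164 CPM of mRNA (log2 −8.65 ± 0.63, adjusted p = 4.52e-06). ND1, a subunit of complex I, had 4.31, 2.56 and 5.71 CPM of footprints and 887, 637 and 881 CPM of mRNA (log2 −8.17 ± 0.55, adjusted p = 3.12e-06). The nuclear genes of the respiratory chain stood much nearer to their mRNA. Of 53, 6 were called higher and 15 lower (median log2 −0.40), beside 17.3 and 20.9% of all genes. On library totals the median was 0.13, beside 0.49 over all genes, with 10 higher and 5 lower. The 6 became 3 without mRNA replicate 1, and the 15 7 without footprint replicate 3, 8 without mRNA replicate 1 or footprint replicate 1 and 9 without mRNA replicate 3. The lowest was cyc-2.1, a cytochrome c gene, with 145, 263 and 95.8 CPM of footprints and 1075, 1026 and 1326 CPM of mRNA (log2 −3.33 ± 0.46, adjusted p = 0.000232).

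Among abundant mRNAs outside these lists, F23A7.4 had 0 footprint counts against 1696 mRNA counts, at least 255-fold lower, and F23A7.8 had 2 against 3318, a ratio of 749 towards mRNA (207 to 6188). F58A6.9 had 1.13, 2.74 and 1.39 CPM of footprints and 147, 126 and 121 CPM of mRNA (log2 −6.69 ± 0.46, adjusted p = 3.66e-06). The choice of these genes excluded neither shared exons nor repeated sequence. Reads that map to several places were not counted, so these low footprint values are uncertain. A further 9 messages with no exon shared with another gene, 5 of them collagens or major sperm proteins, were chosen after their values were seen: F59C12.4, trcs-1, col-12, col-62, fat-2, col-146, msp-81, col-154 and C02E7.6, with log2 differences between −6.09 and −5.28. fat-2, the desaturase that makes the polyunsaturated fatty acid linoleic acid, had 14.3, 13.4 and 18.8 CPM of footprints and 455, 385 and 659 CPM of mRNA (log2 −5.58 ± 0.44, adjusted p = 6.75e-06; −5.47 without footprint replicate 2). trcs-1 had 4.76, 5.94 and 11.6 CPM of footprints and 251, 501 and 281 CPM of mRNA (log2 −6.005 ± 0.47, adjusted p = 5.93e-06). In both, every footprint library lay below every mRNA library, which was a condition of their choice.

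At the other end, the genes with the most footprints for their mRNA were often ones that share exons with a neighbour. B0280.17 had 817 footprint counts and 0 mRNA counts, at least 603-fold higher in footprints, and all of its exon bases lie under ggtb-1 on the opposite strand. F26F4.2 had 541 and 0, at least 399-fold higher, and overlaps F26F4.9. F53G2.12 had 730 and 3, a ratio of 539 (184 to 2619), and overlaps mnat-1, while C08F8.9 overlaps rap-3 (log2 6.70 ± 0.52, adjusted p = 5.93e-06). mRNA reads were counted without strand, and a read that falls on overlapping genes counts for none of them, so the mRNA of these genes is uncertain. mtd-1 had 185, 3.01 and 7.57 CPM of footprints and 0.902, 1.44 and 0.186 CPM of mRNA (log2 5.69 ± 1.29, adjusted p = 0.00439), and its level in footprints rests on replicate 1.

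With no shared exon, glb-1, a globin, had 90.9, 75.3 and 150.0 CPM of footprints and 1.29, 0.78 and 2.54 CPM of mRNA (log2 5.52 ± 0.53, adjusted p = 2.38e-05), and nas-20, an astacin protease, 93.4, 48.5 and 94.5 CPM of footprints and 1.93, 4.44 and 1.30 CPM of mRNA (4.46 ± 0.46, 3.76e-05). A further 10 such genes were chosen after their values were seen: adr-1, col-135, Y48G10A.3, Y92H12BL.4, glna-1, hrpu-2, dpf-2, nmy-1, C10G11.6 and tbc-14, with log2 differences between 4.11 and 3.47. adr-1, which binds double-stranded RNA and regulates its editing, had 163, 148 and 192 CPM of footprints and 1.48, 8.16 and 10.96 CPM of mRNA (log2 4.11 ± 0.55, adjusted p = 0.000182). nmy-1, a non-muscle myosin, had the most footprint counts of them, with 1835, 733 and 2041 CPM of footprints and 97.6, 66.6 and 92.2 CPM of mRNA (log2 3.58 ± 0.49, adjusted p = 0.000215). For all of these the lowest footprint library was above the highest mRNA library, which was a condition of their choice. The rule that named apc-17, C41G11.1 and spp-15 gave log2 differences of 4.85, 4.84 and 4.59, and each shares part of its exons with another gene.

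Among further lists, 17 of 50 splicing factors were called higher and 5 lower (median log2 0.46), and 25 and 0 on library totals. The count of 17 was 7 without mRNA replicate 1, 8 without mRNA replicate 3, 9 without footprint replicate 3 and 10 without footprint replicate 1, and that of 5 was 2 without footprint replicate 1 and 3 without mRNA replicate 3. unc-75, an RNA-binding protein of neurons, was the highest with 2.27, 2.92 and 1.70 CPM of footprints and 0, 0 and 0.557 CPM of mRNA (log2 3.01 ± 1.03, adjusted p = 0.0346), and its call was kept in 1 of the 6 fits that left out a library, the one without mRNA replicate 3. rsp-5, an SR protein, was the lowest (log2 −1.33 ± 0.33, adjusted p = 0.0078). Of 17 glycolysis genes 8 were called higher and 4 lower (median log2 0.92). The 8 became 5 without mRNA replicate 1. The 4 became 2 without mRNA replicates 1 or 3 or footprint replicates 1 or 3, and 2 with the replicate number as a block. The hexokinase hxk-2 was the highest (log2 1.57 ± 0.32, adjusted p = 0.00257), and gpd-1 the lowest with 34.2, 115 and 37.2 CPM of footprints and 202, 384 and 236 CPM of mRNA (−2.62 ± 0.47, 0.00112). Of 31 proteasome subunits 4 were called higher and 2 lower, no larger a share than over all genes, and rpn-1 was at 1.43 ± 0.35 (adjusted p = 0.00696) and pbs-1 at −1.29 ± 0.32 (0.00716). The 4 became 1 without mRNA replicates 1 or 3 and 2 without footprint replicate 3, and the 2 1 without mRNA replicates 1, 2 or 3 or footprint replicates 1 or 3 and 5 without footprint replicate 2. Of 116 nuclear hormone receptors tested among 245, 14 were called higher and 5 lower, also no larger shares than over all genes. The 14 became 8 without footprint replicate 1, and the 5 2 without mRNA replicates 1 or 3 or footprint replicate 1, 3 without footprint replicate 3 and 8 without footprint replicate 2. nhr-85 was the highest, with 13.6, 7.31 and 9.42 CPM of footprints and 0.322, 0.24 and 0.124 CPM of mRNA (log2 4.86 ± 0.59, adjusted p = 0.000105), and shares exons with npr-14. nhr-230 was the lowest, with 0, 0.183 and 0.309 CPM of footprints and 14.2, 30.2 and 25.7 CPM of mRNA (log2 −7.40 ± 0.62, adjusted p = 9.39e-06). On library totals the numbers called higher and lower were 10 and 1 for glycolysis, 8 and 0 for the proteasome and 26 and 2 for nuclear hormone receptors. Of 35 histone genes tested among 81, 8 were called higher and 10 lower (13 and 6 on library totals). Over all genes 17.3% were called higher and 20.9% lower on the TMM scale. On library totals 3464 of the 12048 genes were called higher and 1545 lower.

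Genes called higher had longer coding sequences than genes called lower, a feature the test did not use. The median coding length was 1587 bases for 2075 genes called higher, 777 for 2489 called lower and 1110 for the 7434 others with a coding sequence. The median log2 difference was −1.09 for 632 genes under 300 bases, −0.63 from 300 to 600, −0.25 from 600 to 1200, 0.24 from 1200 to 2400 and 0.81 for 1534 genes of 2400 or more. Without ribosomal proteins, col collagens and major sperm proteins the medians of the shortest and the longest of these classes were −1.06 and 0.81. With footprints set per coding length and mRNA per exon length, the medians over all genes of these 2 classes were −0.55 and 0.74, and 2317 genes were called higher and 2268 lower. The part of length in the calls was not tested further.

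The differences seen in heat were set beside those of WT worms at 20 °C in a fit of all 12 WT libraries, in which the interaction of assay and temperature tests whether the ratio of footprints to mRNA differs between 37 and 20 °C. The 37 °C libraries are the same as above. Of 13322 genes tested, the ratio was called higher at 37 °C for 660 (4.95%) and lower for 560 (4.2%). With the replicate number as a block, 999 and 1071 were called. The counts depended on single libraries: the 660 became 127 without 37 °C mRNA replicate 3, 128 without 37 °C mRNA replicate 1, 151 without 20 °C mRNA replicate 2, 164 without 20 °C footprint replicate 1, 169 without 37 °C footprint replicate 3, 202 without 20 °C mRNA replicate 3, 238 without 20 °C footprint replicate 3, 388 without 37 °C footprint replicate 1 and 1133 without 37 °C footprint replicate 2, and the 560 became 111 without 37 °C mRNA replicate 3, 120 without 37 °C mRNA replicate 1, 134 without 20 °C mRNA replicate 2, 152 without 20 °C footprint replicate 1, 153 without 20 °C mRNA replicate 3, 167 without 37 °C footprint replicate 3, 233 without 20 °C footprint replicate 3, 313 without 37 °C footprint replicate 1, 891 without 20 °C mRNA replicate 1 and 1359 without 37 °C footprint replicate 2. WT footprint replicate 2 at 20 °C also held reads that go against its label: 147 counts of cTel55X.1 (11.4 CPM, with 0 in replicates 1 and 3), against 12.4 to 20.5 CPM in the mutant footprints at 20 °C. ZK228.3 was at 17.05 CPM in it, against 37.4 and 34.4 CPM in replicates 1 and 3, so that its identity is in doubt too. Without it and heated footprint replicate 3, an alternative chosen after seeing the data, 194 were called higher and 172 lower, and 14 of the 23 changes called among named genes were still called.

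Most collagens had fewer footprints for their mRNA in heat than at 20 °C. Of 112 col collagens, 73 had a lower ratio at 37 °C and 0 a higher one (40 without 37 °C mRNA replicate 1, 42 without 20 °C mRNA replicate 2, 43 without 20 °C mRNA replicate 3, 44 without 37 °C mRNA replicate 3 and 46 without 20 °C footprint replicate 1; 40 to 84 over the fits that left out 1 library and 55 without both libraries of doubtful identity), and the median log2 difference of footprints and mRNA was −3.16 at 37 °C and 0.01 at 20 °C. col collagens held 1.59 ± 1.19% of footprint counts and 9.31 ± 2.15% of mRNA counts at 37 °C, and 5.40 ± 1.33% and 5.33 ± 1.82% at 20 °C. For col-19 the ratio was lower at 37 °C, with a log2 change of −3.38 ± 0.68 (adjusted p = 0.0121), with 568 ± 466 CPM of footprints at 37 °C and 1953 ± 382 CPM at 20 °C, beside 4258 ± 696 and 2096 ± 462 CPM of mRNA. bli-6 had a log2 change of −3.87 ± 0.75 (0.0105). Both calls were kept with each of the 12 libraries left out in turn and without both libraries of doubtful identity.

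Ribosomal proteins were below their mRNA at both temperatures, with a median of −2.24 at 37 °C and −0.91 at 20 °C. The change with heat was called lower for 15 of 75 and higher for 0, and the 15 became 0 without 20 °C mRNA replicates 2 or 3, 37 °C mRNA replicates 1 or 3, 20 °C footprint replicate 3 or 37 °C footprint replicate 3, 2 without 20 °C footprint replicate 1 or 37 °C footprint replicate 1, 7 without 20 °C footprint replicate 2, 23 without 20 °C mRNA replicate 1, 33 without 37 °C mRNA replicate 2 and 60 without 37 °C footprint replicate 2, 9 with the replicate block and 0 without both libraries of doubtful identity. rla-0 (−2.32 ± 0.54, adjusted p = 0.0197) and rps-8 (−2.37 ± 0.56, 0.02) were among the 15, and both calls were lost without 20 °C mRNA replicates 2 or 3, 37 °C mRNA replicates 1 or 3, 20 °C footprint replicate 3 or 37 °C footprint replicate 3 (adjusted p 0.0529 to 0.0606 for rla-0 and 0.0529 to 0.0617 for rps-8). The elongation factor eef-1A.1 had a log2 change of −2.62 ± 0.64 (adjusted p = 0.0231), with 7351 ± 6010.0 CPM of footprints at 37 °C and 16554 ± 1454 CPM at 20 °C, beside 13269.8 ± 1929 and 7234 ± 919.7 CPM of mRNA. The call was lost without 20 °C mRNA replicates 2 or 3, 37 °C mRNA replicates 1 or 3, 20 °C footprint replicates 1 or 3 or 37 °C footprint replicate 3 (adjusted p 0.0526 to 0.0691). It was also lost, like those of rla-0 and rps-8, without both libraries of doubtful identity (0.101). For major sperm proteins the medians were −3.24 at 37 °C and −3.46 at 20 °C with 0 of 29 called (4 lower without 37 °C footprint replicate 2), and for mitochondrial DNA genes −8.08 and −7.67 with 0 of 12 called (1 lower without 37 °C mRNA replicate 2). A ratio, here or below, whose change missed the threshold is not shown to be equal at both temperatures. In simulated data the interaction test recovered 0% of 2-fold and 12% of 4-fold changes.

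Among chaperones, hsp-70 had a log2 difference of 2.43 at 37 °C and 2.11 at 20 °C, and the change of 0.32 ± 0.61 did not pass the test (adjusted p = 0.809). Its levels were 16199 ± 8674 CPM of footprints at 37 °C and 28.9 ± 7.96 CPM at 20 °C, and 2164 ± 196 and 6.99 ± 3.19 CPM of mRNA. hsp-90 had a lower ratio in heat (−1.80 ± 0.39, adjusted p = 0.016), as had hsp-6 (−2.10 ± 0.43, 0.0126) and crt-1 (−2.20 ± 0.46, 0.0132). hsp-6 and crt-1 kept this call with each library left out, and hsp-90 lost it without 37 °C mRNA replicate 3 (adjusted p = 0.0526). Without both libraries of doubtful identity hsp-6 and crt-1 kept the call and hsp-90 lost it (0.0744). Muscle filament genes had medians of 0.77 at 37 °C and 1.01 at 20 °C, with 0 of 39 called in either direction (the number called lower was 1 without 37 °C footprint replicate 1, 3 without 37 °C mRNA replicate 2 or 37 °C footprint replicate 2 and 4 without 20 °C mRNA replicate 1, and 3 with the replicate block).

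**Figure D5:**
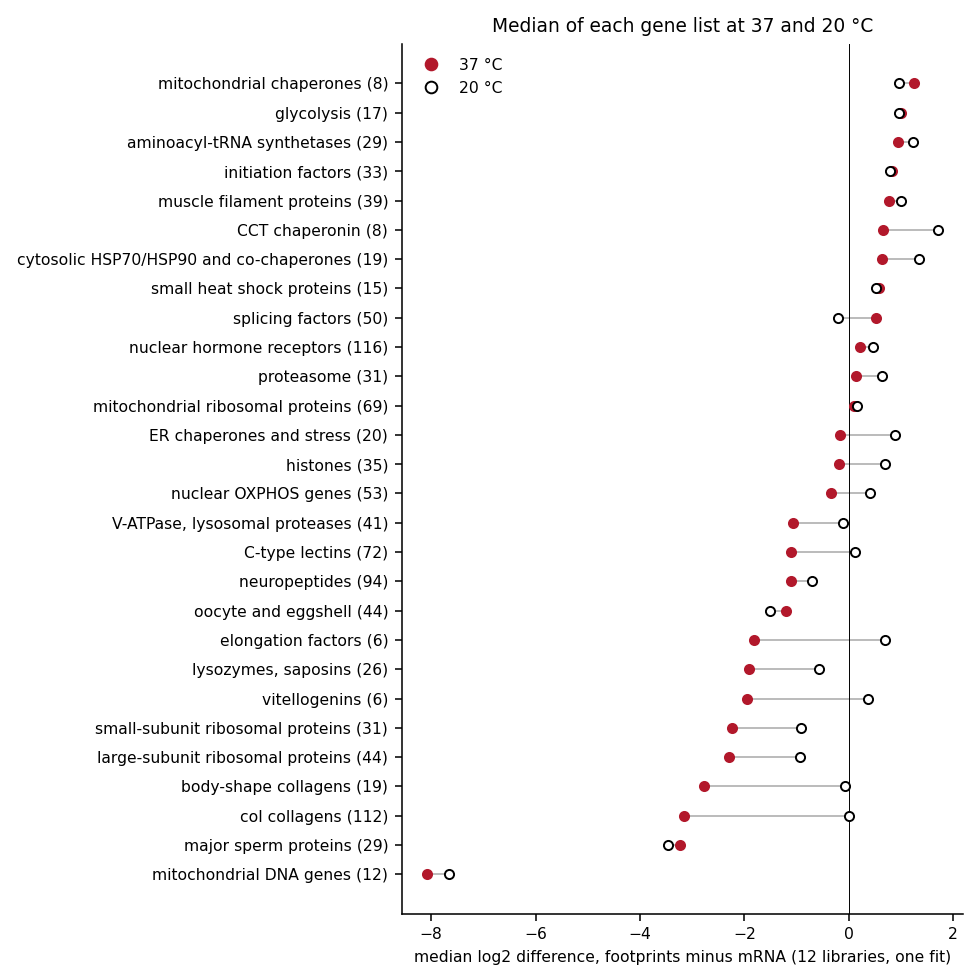
Median log2 difference of footprints minus mRNA of 28 gene lists at 37 °C (red) and 20 °C (open) in one edgeR fit of 12 WT libraries, with the number of genes tested in brackets. The circles are far apart for col collagens (−3.16 at 37 °C and 0.01 at 20 °C), body-shape collagens and elongation factors and close for major sperm proteins and small heat shock proteins; medians carry no test of their own.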

How the data were processed

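Ribosome profiling and mRNA sequencing of adult wild-type worms at 37 and 20 °C were used, with 3 libraries in each group, as the sample labels give them. The authors deposited 1 table of read counts per gene and library, with columns for unstranded, forward and reverse counting. The submitters' processing notes name STAR and DESeq2 without version, and no build, annotation or option is stated there. Whole-number counts were taken from the sense column (column 3) for footprints, where 99.7, 99.8 and 99.8% of stranded counts lay in heated worms, and from the unstranded column (column 2) for mRNA, where the strands were even. Reads with no single gene (unmapped, mapped more than once, intergenic or in overlapping genes) were 52.1, 19.2 and 29.2% of heated footprint reads and 27.1, 20.6 and 21.4% of heated mRNA reads, and stayed out of library sizes and tests.

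Counts were tested with edgeR 4.0.16 in R 4.3.3 (filterByExpr, TMM, quasi-likelihood test, Benjamini-Hochberg adjustment, threshold 0.05), with limma 3.58.1. DESeq2 1.42.0 was an alternative. Shares were tested with an exact two-sided permutation test (Python 3.11.15, scipy 1.17.1). The scripts were tested on simulated data with known changes, 100 genes for each fold. The test of footprints against mRNA recovered 4% of 2-fold and 70% of 4-fold changes. The test of the change with heat recovered 0% of 2-fold and 12% of 4-fold changes. Of unchanged genes, the tests called 2 of 11848 and 1 of 13122. Most changes of these sizes with heat would thus be missed, and a missing call is no evidence of an unchanged ratio. Counting intervals are exact 95% intervals, a count of 0 was set to a floor of 3 counts over a group, and both cover counting error only. Gene lengths, overlaps and positions came from the Ensembl WBcel235 annotation (release 115), matched by gene ID, and per-length levels were scaled to TPM.

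The members and gene lists were chosen with earlier results of these data known. The text names the 10 genes highest by footprint counts and the 8 highest by mRNA counts, the 10 lowest differences among the 1000 most abundant mRNAs per length, the 10 highest with at least 20 CPM of footprints, the highest and lowest called member of each list, and 12 heat and stress genes. 1 further gene, and the list it led, is not reported here. The lowest and highest differences were taken among called genes with a symbol whose footprint and mRNA libraries did not overlap in CPM. The conditions on shared exons and repeated sequence, which needed a genome, fell away. Other genes are said to be chosen after their values were seen.

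Same-numbered footprint and mRNA libraries deviated together from their group means. For replicates 1, 2 and 3 the correlations were 0.336, 0.115 and 0.135 at 37 °C and 0.631, 0.517 and 0.256 at 20 °C. Unlike numbers had negative correlations, except footprint replicate 3 with mRNA replicate 2 at 37 °C (0.110). The numbers may thus pair the samples, but weakly for replicates 2 and 3 at 37 °C. The main fit did not use them, and a fit with the replicate number as a block was run. Alternatives were another normalization and tool, no filter on low counts, unstranded footprint counts, length, shared exons and each library left out. The authors' 6 tables of comparisons were not used. Libraries of the mutant served only to check the labels of the WT libraries, through cTel55X.1, ZK228.3 and ZK228.4.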

Additional observations from a re-analysis of the deposited data

Results flagged for a closer look

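For 23 of the genes named, the ratio of footprints to mRNA differed between 37 and 20 °C in the edgeR interaction test. The log2 change (37 minus 20 °C) passed the threshold with each of the 12 libraries left out for col-7 (−4.10), crt-1 (−2.20), hsp-6 (−2.10), bli-6 (−3.87), spp-17 (−2.98), col-19 (−3.38), col-12 (−3.94), col-62 (−4.43), col-146 (−4.03). It was called with all libraries but lost in at least 1 such fit for hsp-90 (−1.80), eef-1A.1 (−2.62), vit-6 (−2.47), eef-2 (−1.60), col-124 (−3.45), rla-0 (−2.32), rps-8 (−2.37), cyc-2.1 (−1.98), asp-3 (−2.76), clec-222 (3.74), fat-2 (−2.52), col-154 (−3.12), C02E7.6 (−2.31). By gene the number of fits without a call was 1 for hsp-90, 7 for eef-1A.1, 8 for vit-6, 9 for eef-2, 5 for col-124, 6 for rla-0, 6 for rps-8, 7 for cyc-2.1, 3 for asp-3, 9 for clec-222, 1 for fat-2, 5 for col-154, 8 for C02E7.6. The losses came without 20 °C footprint replicates 1, 2 or 3, 20 °C mRNA replicates 2 or 3, 37 °C footprint replicates 1 or 3 or 37 °C mRNA replicates 1, 2 or 3, with adjusted p from 0.0509 to 0.131. clec-144, a C-type lectin, had a fitted change of −9.71, but 0 mRNA counts at 20 °C, so that value depends on the prior count and is no bound. eef-2 missed the threshold with the replicate block (adjusted p = 0.0637).

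WT footprint replicate 3 at 37 °C, 1 of the 6 libraries of the comparison, held 27 counts of cTel55X.1, a gene with 0 counts in the 6 WT mRNA libraries and 502 and 618 in the 3 mutant mRNA libraries at 37 and at 20 °C. Without that library, 93 of 101 named genes called at 37 °C were still called, and crt-1, hsp-6, rpl-15, rps-3, bli-2, msp-63, unc-75 and vha-17 were not.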

How the results depend on the processing

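Of the footprint and mRNA differences at 37 °C, 2082 genes called higher and 2521 lower became 3464 and 1545 on library totals, and 1345 and 1857 without footprint replicates 2 and 3, with the lone footprint library assumed to vary like the mRNA libraries. They were 2448 and 2510 in DESeq2, 2179 and 2730 with no filter, 2317 and 2268 per length, 1523 and 1834 among the 8992 genes with no exon overlap, and 1454 to 2363 and 1928 to 2960 with 1 library left out. The planned limit to coding sequence found once in the genome was not run. With the replicate number as a block, in a paired fit, 2246 and 2742 were called. The difference in the share of the top 100 genes was −13.8 points, and for the top 20 it was 0.00941 points.

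For the change of the ratio with heat, 660 genes called higher and 560 lower became 1119 and 891 in DESeq2, 1455 and 266 on library totals and 999 and 1071 with the replicate block. Without the footprint libraries at 37 °C replicates 2 and 3 and at 20 °C replicate 2, 304 were called higher and 516 lower, and without 37 °C replicate 3 and 20 °C replicate 2 alone, chosen after seeing the data, 194 and 172. With 1 library left out they were 127 to 1133 higher and 111 to 1359 lower. The cause of these shifts was not tested.

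Among named genes, 4 changed sign, none of them called. hsp-90 was at 0.241 and eef-2 at 0.265 on library totals. vit-6, at 0.09, was −0.22 with the block, −0.13 per length, −0.96 without footprint replicates 2 and 3 and −0.83 to 0.44 with 1 library left out. hsp-16.2, at −0.08, was 0.0063 in DESeq2, 0.456 on library totals, 0.0794 per length, 0.402 without footprint replicates 2 and 3 and −0.38 to 0.23 with 1 library left out. The cause was not tested. The block changed no call of a named gene at 37 °C. Over these alternatives, 1531 values of named genes at 37 °C kept their direction and side of the threshold, 69 lost a call, 13 gained one and 12 changed sign. Low footprint counts, as in replicate 1, limit what can be seen of rare messages.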

Other observations

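Some groups held single members far from the rest. The lectin clec-222 had 4.76, 7.95 and 16.22 CPM of footprints and 0, 0.12 and 0.372 CPM of mRNA at 37 °C (log2 5.29 ± 0.83, edgeR adjusted p = 0.000529). Among histones, his-63 had 4.99, 30.3 and 11.1 CPM of footprints and 1.22, 1.38 and 2.04 CPM of mRNA (log2 2.79 ± 0.62, 0.00402), while his-39 had 0 footprint counts against 65 mRNA counts over 3 libraries each, at least 9.78-fold lower with the 0 taken as a floor of 3 counts in the group. Histone genes are near-identical copies, so both values are uncertain. The neuropeptide gene nlp-62 had 2 footprint counts against 68 mRNA counts, a ratio of 15.4 towards mRNA (95% counting interval 4.09 to 129). Among nuclear genes of the respiratory chain the highest was cox-16 (log2 2.30 ± 0.50, 0.00345), which shares 61.6% of its exon bases with C24G6.8 on the same strand.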
